A study of Mus musculus with 6 samples.

Results

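The genes that copy DNA and carry a cell from G1 into S phase were read as 47 genes chosen by name: the MCM helicase and its partners, the replicative polymerases, the sliding clamp and its loader, the enzymes of nucleotide supply, replication-coupled chromatin factors, and the E-type cyclins and E2F activators. All 47 had a row among the 12153 genes measured by RNA-Seq in Tregs sorted from B16 tumors. B16.F10 is a mouse melanoma line. Tumors had grown for 15 days, and 3 libraries came from control mice, labeled as carrying floxed *Nr3c1* alleles, and 3 from Nr3c1-Foxp3Cre mice, which carried the floxed *Nr3c1* alleles and Foxp3-YFP/Cre, a Cre under the *Foxp3* promoter that is expressed in Tregs. *Nr3c1* encodes the glucocorticoid receptor (GR), so the comparison asked how tumor Tregs differ when they lack GR. The labels describe a sort on CD45, CD4 and CD25 and the study's methods a sort on Foxp3-YFP, with leukocytes enriched on a Percoll gradient first. No Cre or YFP allele was labeled for the control mice, although a sort on Foxp3-YFP would need one, so whether they carried it is not known. If they did not, GR loss and the presence of Cre cannot be told apart here. The study's methods put mice of both sexes together. The labels do not say whether a library came from 1 mouse or from pooled mice, and the p-values below measure only the spread between these samples.

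Replication starts when origins bound by the origin recognition complex receive CDC6 and CDT1, which load the MCM hexamer in G1. At the G1/S boundary, cyclin E with CDK2 and E2F transcription factors switch on the S-phase genes, CDC45 and the GINS complex join the hexamer to form the active CMG helicase, and polymerases follow with PCNA as their clamp. In tumors, Tregs are often activated and cycling cells, and transcripts of this machinery are a common sign of the fraction of cells in cycle.

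The RNA of this machinery differed little between control and Nr3c1-Foxp3Cre libraries. No member passed an adjusted p of 0.05: limma, with p-values adjusted over all genes, called 0 of 47 members, against 7 of all 12153 genes (0.0576%). At an unadjusted p under 0.05, 1 member was lower, *Mcm6*, and 0 were higher, where 1.65% of all genes were lower and 1.61% higher. *Mcm6* was also the only member whose groups did not overlap, where 3.73% of all genes were lower without overlap and 3.69% higher. A count of 1 in 47 is near these shares. What is given on *Mcm6* below describes 1 gene and is no result about the members as a set. Values are log2 CPM, the reads of a gene scaled to a common library total, and a log2 fold change is the mean of the Nr3c1-Foxp3Cre libraries minus that of the control libraries. The log2 fold changes of the 47 members ran from -0.44 to 0.11 with a median of -0.076, where the median of all genes was -0.0015. They were below 0 for 37 members (78.7%), against 50.5% of all genes, and for 36 of the other 46 members when *Mcm6* was left out. For 42 of the 47 members the difference was smaller than the larger SD within a group. The data also bounded what could have been missed, since for 42 members (89.4%) the whole 95% interval lay within a 1.5-fold change either way, against 89.1% of the genes with a mean of at least 5 log2 CPM. In bulk RNA, fewer cycling cells and less RNA of these genes per cell cannot be told apart.

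**Figure D1:**
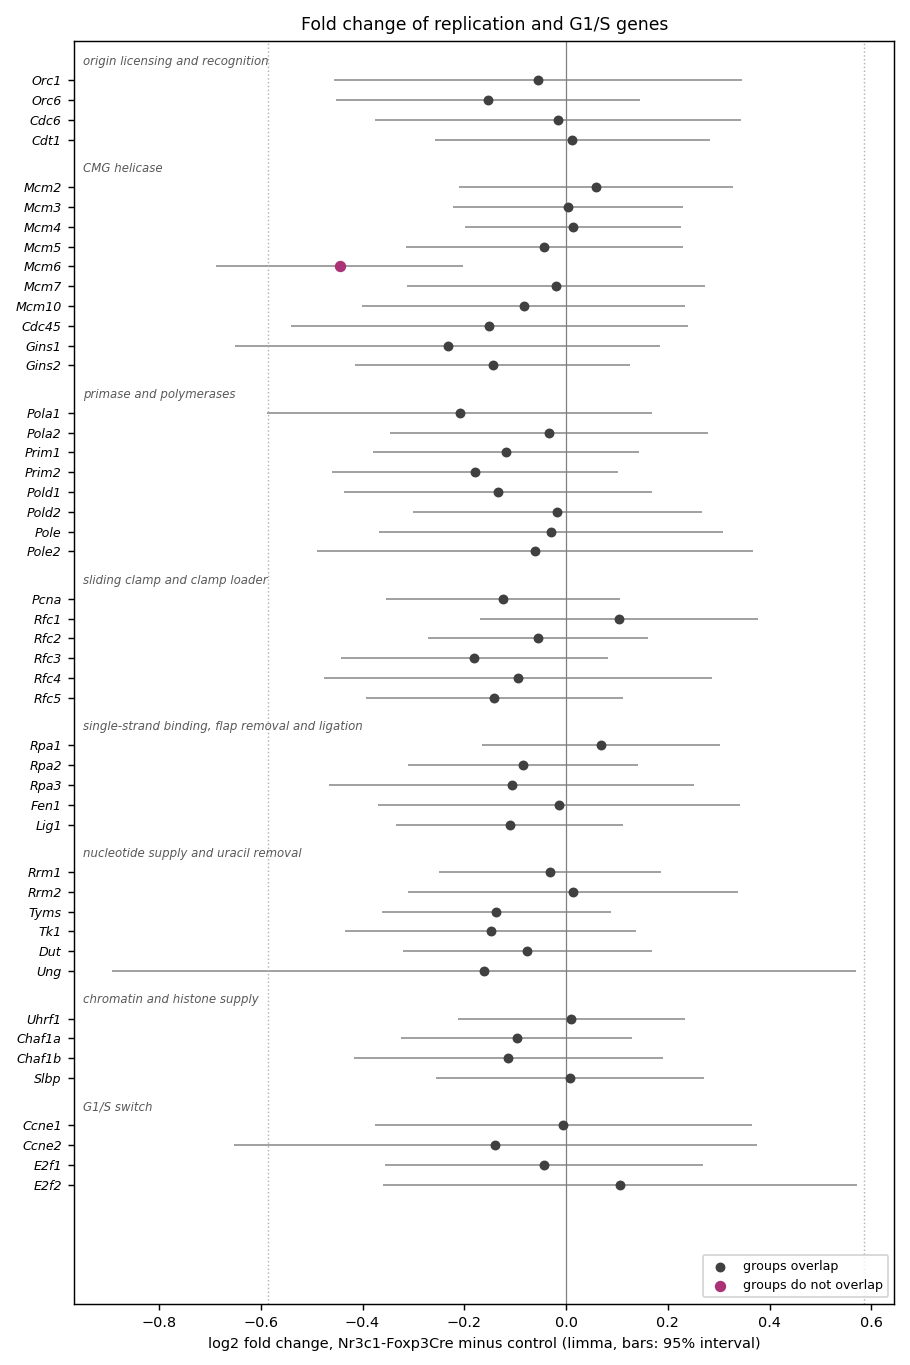
Log2 fold change (x axis) of each of the 47 members (y axis, grouped by role), with 95% intervals from limma as bars and dotted lines at a 1.5-fold change. The interval of *Mcm6*, at -0.44, is the only one that does not reach 0.

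In the control libraries *Nr3c1* was at 7.15, 7.59 and 6.88 log2 CPM, and in the Nr3c1-Foxp3Cre libraries at 6.14, 5.45 and 5.90, without overlap. Its log2 fold change was -1.38 (SE 0.21, limma unadjusted p = 9.15e-05, limma adjusted p = 0.120). *Tsc22d3*, among the glucocorticoid-responsive genes that the study took as positive controls, was also lower without overlap (log2 fold change -1.56, SE 0.16, limma adjusted p = 0.0342). Of the Treg markers, *Il2ra* and *Ctla4* were high (means of at least 8.40 and 9.25 log2 CPM in each group). *Il2ra* encodes CD25, part of the labeled sort, so its level is no separate check of the label. *Foxp3* lay between 3.39 and 4.47, below the median gene of each library (4.93 log2 CPM). Markers of other cells were present, although the gate in the study's methods left out cells stained for CD11b, CD11c, B220, NK1.1 or TCR-γδ. The labels name no such gate. All 8 melanocyte and B16 markers had a value, and their sum ranged from 3600 to 9690 CPM in control and from 3970 to 10100 CPM in Nr3c1-Foxp3Cre libraries. All 10 macrophage markers summed to 374 to 561 and 271 to 544 CPM. These sums overlapped, but all 10 markers had a log2 fold change below 0, with a median of -0.52. By limma, 0 of them had an unadjusted p under 0.05. All 4 fibroblast markers summed to 185 to 457 CPM in control and 75.0 to 167 CPM in Nr3c1-Foxp3Cre libraries, without overlap. Of 4 B cell markers 1 and of 5 CD8 T and NK cell markers 2 were in the table (14.1 to 23.4 and 10.2 to 22.4 CPM). The part of these cells in the results below was not tested, except that a fit with the melanocyte markers as a covariate is given where it bears on a value. The deposited values carry no read totals, so depth is unknown.

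Letters of the E2F motif lay in the promoters of several of these genes. Matches of the loading and helicase genes are printed because these genes include *Mcm6*, the only member whose groups did not overlap. The 250 bases before each RefSeq start (GRCm38.p6) were searched on both strands for TTTCCCGC, TTTCGCGC, TTTGCCGC and TTTGGCGC. Windows were at hand for 40 of the 47 members. The letters were in 8 of 47 member windows (17%), from 8 genes, and in 611 of all 32851 windows (1.86%). The members include genes chosen as E2F-driven, so a higher share among them was in part built into the choice. Besides the 5 genes printed here, the windows of *Pola1*, *Rfc3* and *Uhrf1* held them, and those of *Mcm2* and *Mcm3* did not hold these letters. CCAAT, the box bound by NF-Y, was in 27 member windows (57.4%), against 33.8% of all windows. Each sequence is 40 bases long on the gene's strand, and capitals mark the letters of 1 match. The first *Mcm6* match began 47 bases before the start and the second 110 bases before it, with an overlapping match on the other strand at 106. The *Mcm5* match, 153 bases before the start, also overlaps one on the other strand, at 149.
Mcm6, chr1:128359729-128359768, minus strand: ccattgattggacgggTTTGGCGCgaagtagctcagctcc
Mcm6, chr1:128359792-128359831, minus strand: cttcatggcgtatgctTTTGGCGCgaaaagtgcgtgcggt
Mcm5, chr8:75109340-75109379, plus strand: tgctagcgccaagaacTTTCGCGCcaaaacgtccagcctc
Mcm7, chr5:138172025-138172064, minus strand: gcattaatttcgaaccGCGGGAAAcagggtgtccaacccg
Cdc6, chr11:98907997-98908036, plus strand: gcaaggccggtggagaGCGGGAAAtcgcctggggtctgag
Orc1, chr4:108579411-108579450, plus strand: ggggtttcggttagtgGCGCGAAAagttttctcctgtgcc
A match describes the letters only. Among the genes with a match, *Mcm6* had a log2 fold change of -0.44, *Pola1* -0.21 and *Rfc3* -0.18. *Mcm5*, *Mcm7*, *Cdc6* and *Orc1* lay between -0.055 and -0.016 and *Uhrf1* was at 0.010. The 95% intervals of *Pola1* (-0.59 to 0.17) and *Rfc3* (-0.44 to 0.082) took in the values of these last genes. Whether the letters bear on these values was not tested.

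Origin licensing genes overlapped between the groups, with 95% intervals of -0.46 to 0.35 for *Orc1* and -0.45 to 0.15 for *Orc6*. Over its 4 members, *Orc1* and *Orc6* of the origin recognition complex and the loaders *Cdc6* and *Cdt1*, log2 fold changes ran from -0.15 to 0.01 and 0 passed the unadjusted test. *Cdc6* (chr11:98907801-98923940, mm10), whose product brings the helicase to the origin, was at 6.39, 5.93 and 6.30 log2 CPM in control libraries 1 to 3 and at 5.94, 6.38 and 6.25 in Nr3c1-Foxp3Cre libraries 1 to 3 (log2 fold change -0.016, 95% interval -0.37 to 0.34). Its lowest library in each group lay near 5.9 and its highest near 6.4, and the groups overlapped over nearly their whole range. *Cdt1* (chr8:122568015-122573554), which is needed with CDC6 to load the hexamer, was at 6.06, 5.94 and 6.07 in control and 5.95, 6.22 and 5.94 in Nr3c1-Foxp3Cre libraries (log2 fold change 0.012, 95% interval -0.26 to 0.28). The groups overlapped, with Nr3c1-Foxp3Cre replicate 2 the highest library and the other 5 close together.

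Within the MCM hexamer, the groups overlapped for 5 subunits and not for *Mcm6*, which was lower but did not pass the adjusted threshold. *Mcm6* (ENSMUSG00000026355, chr1:128331590-128359664, minus strand) was at 9.36, 9.15 and 9.48 log2 CPM in control libraries and at 8.88, 8.85 and 8.94 in Nr3c1-Foxp3Cre libraries. Every Nr3c1-Foxp3Cre library lay below every control library, and the Nr3c1-Foxp3Cre libraries were close to each other (SD 0.047, against 0.17 in control, n = 3 each). Its log2 fold change of -0.44 (SE 0.11, 95% interval -0.69 to -0.20) had an unadjusted p = 0.00239 and a limma adjusted p = 0.684, so that it did not pass the threshold over all genes. It fell short of the threshold in all 14 other settings too, in which the log2 fold change lay between -0.56 and -0.37, the adjusted p between 0.0545 and 1.0, and the unadjusted p between 9.86e-05 and 0.0145. With the melanocyte markers in the model it was -0.44 (limma adjusted p = 0.260).

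The other 5 subunits are partners of MCM6 in the same ring. *Mcm2* (chr6:88883474-88898780) was at 8.77, 8.41 and 8.78 log2 CPM in control and 8.61, 8.78 and 8.75 in Nr3c1-Foxp3Cre libraries (log2 fold change 0.058, 95% interval -0.21 to 0.33). *Mcm3* (chr1:20802968-20820312) was at 8.77, 8.68 and 8.84 against 8.71, 8.68 and 8.91 (log2 fold change 0.0037, 95% interval -0.22 to 0.23). *Mcm4* (chr16:15623897-15637400) was at 7.95, 7.99 and 8.09 against 8.0, 7.95 and 8.12 (log2 fold change 0.014, 95% interval -0.20 to 0.23). In these 3 genes the groups overlapped, and only the low *Mcm2* value of control replicate 2 lay away from the rest. *Mcm5* (chr8:75109569-75128439) was at 8.71, 8.51 and 8.77 in control and 8.52, 8.51 and 8.84 in Nr3c1-Foxp3Cre libraries (log2 fold change -0.043, 95% interval -0.31 to 0.23). *Mcm7* (chr5:138164583-138172422) was at 8.13, 8.04 and 8.29 against 8.19, 7.88 and 8.34 (log2 fold change -0.020, 95% interval -0.31 to 0.27). Both overlapped, and in both the highest library was Nr3c1-Foxp3Cre replicate 3. *Mcm7* has exons that overlap those of *Cops6* and *Ap4m1*.

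Set against its partners within each library, *Mcm6* stood 0.90, 0.82 and 0.93 log2 units above the mean of the other 5 subunits in control libraries and 0.47, 0.49 and 0.35 above it in Nr3c1-Foxp3Cre libraries. The means were 0.88 ± 0.055 and 0.44 ± 0.076 (SD, n = 3 each), a difference of -0.45. A scaling factor common to a library would cancel in this ratio, but quantile normalization, which these values went through, is not such a factor. It was chosen after the *Mcm6* values were seen, and no p is given for it. Per kb of transcript *Mcm6* was the most abundant subunit in the control libraries, at 223 ± 25.7 CPM per kb (SD, n = 3), ahead of *Mcm3* at 143 ± 7.53. In the Nr3c1-Foxp3Cre libraries it was at 163 ± 5.29 and *Mcm3* at 144 ± 13.0, and the single values of these genes overlapped there (158 to 169 and 135 to 159 CPM per kb). *Mcm2* and *Mcm5* were level with each other near 120 CPM per kb in each group, and *Mcm4* was the lowest, near 72. This order rests on the transcript length used: over the union of all exons of each gene, *Mcm6* and *Mcm3* were at 118 and 116 CPM per kb over all 6 libraries and *Mcm2*, at 59.1, came last.

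**Figure D2:**
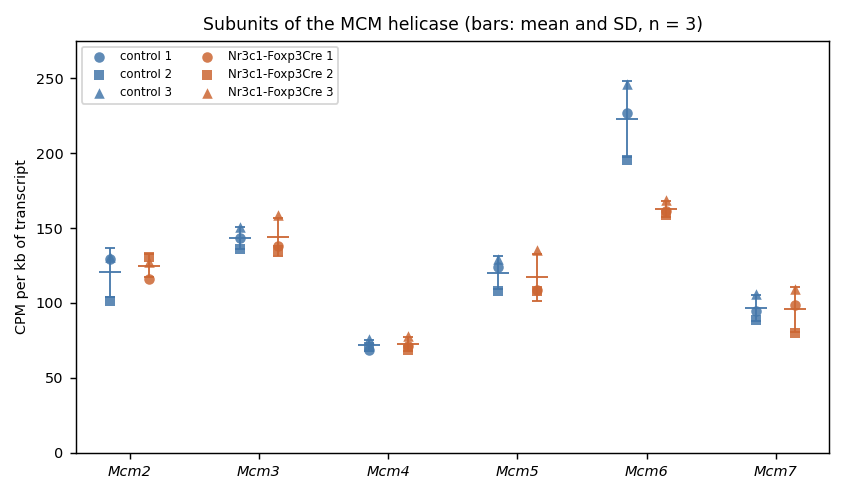
Level of each MCM subunit (x axis) in CPM per kb of transcript (y axis, from 0) in each library, with the mean and SD of each group as bars. The 3 Nr3c1-Foxp3Cre values of *Mcm6* lie between 158 and 169, below the control values of 195 to 246, while the groups of the other 5 subunits overlap.

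*Mcm6* lies in a stretch of chromosome 1 where many genes differed between the groups. Its exons overlap those of no other protein-coding gene in GENCODE M21. Among the 86 other genes of the table within 10 Mb of it, 19 (22.1%) had groups without overlap, 8 lower and 11 higher, and 16 (18.6%) an unadjusted p under 0.05. On the rest of chromosome 1 these shares were 8.39% and 4.68% of 620 genes, and among all genes 7.41% and 3.26%. The nearest neighbor, *Dars*, an aminoacyl-tRNA synthetase gene 0.032 Mb away, was at 7.99, 7.78 and 7.90 log2 CPM in control and 7.55, 7.69 and 7.51 in Nr3c1-Foxp3Cre libraries, also without overlap (log2 fold change -0.30, SE 0.099, unadjusted p = 0.0129, limma adjusted p = 1.0). Of the 7 genes called over the whole table, *Rnpep* (log2 fold change -0.95) and *Lad1* (-8.58) lie 6.93 and 7.49 Mb from *Mcm6*. The other 2 members on chromosome 1 lie far from this stretch, *Prim2* 94.9 Mb and *Mcm3* 108 Mb away, and their groups overlapped. The window was chosen after these values were seen, and whether the position of *Mcm6* bears on its level was not tested.

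**Figure D3:**
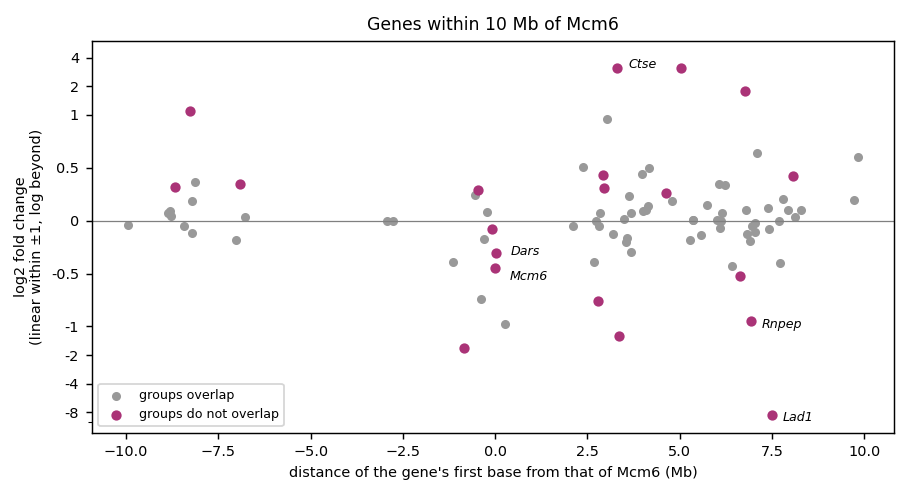
Log2 fold change (y axis, linear within 1 of 0 and logarithmic beyond) of *Mcm6* and the 86 other genes within 10 Mb of it on chromosome 1, by distance in Mb (x axis). Colored points are genes whose groups do not overlap, *Mcm6* and 19 others, and they lie on both sides of 0.

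The partners that turn the loaded hexamer into an active helicase overlapped between the groups. *Gins1* (chr2:150905400-150931280), of the GINS complex, had the lowest log2 fold change after *Mcm6*, at 4.47, 4.08 and 4.58 log2 CPM in control and 4.03, 4.21 and 4.20 in Nr3c1-Foxp3Cre libraries (log2 fold change -0.23, SE 0.19, unadjusted p = 0.241). The highest Nr3c1-Foxp3Cre library lay above control replicate 2, and the log2 fold change was -0.38 without that library and -0.13 without control replicate 3. *Mcm10*, *Cdc45* and *Gins2* lay between -0.15 and -0.083 and did not pass the unadjusted test.

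Primase and polymerase genes all had log2 fold changes below 0, from -0.21 to -0.017 over 8 members, and 0 passed the unadjusted test. *Pola1* (chrX:93304767-93632155), the catalytic subunit of the polymerase that starts each strand, was at 5.41, 5.35 and 5.76 log2 CPM in control and 5.41, 5.02 and 5.47 in Nr3c1-Foxp3Cre libraries (log2 fold change -0.21, SE 0.17, unadjusted p = 0.245). Nr3c1-Foxp3Cre replicate 2 was the lowest library and control replicate 3 the highest, and the remaining 4 lay together. Without the first of these libraries the log2 fold change was -0.069, and without the second -0.082. The other 7, *Pola2*, the primase genes *Prim1* and *Prim2*, *Pold1* and *Pold2* of polymerase delta and *Pole* and *Pole2* of polymerase epsilon, lay between -0.18 and -0.017.

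The sliding clamp and its loader overlapped as well. *Pcna* (chr2:132249162-132253314), which encodes the ring that holds polymerases on DNA, was at 8.38, 8.14 and 8.27 log2 CPM in control and 8.02, 8.19 and 8.21 in Nr3c1-Foxp3Cre libraries (log2 fold change -0.12, 95% interval -0.35 to 0.11). A processed copy, *Pcna-ps2*, was in the table at about 0 log2 CPM (group means 0.25 and -0.079), and how reads shared with it were counted was not tested. *Rfc1* (chr5:65261850-65335670), the large subunit of the clamp loader, was at 6.12, 6.0 and 6.14 against 6.29, 5.99 and 6.30 (log2 fold change 0.10, SE 0.12, unadjusted p = 0.416). The lowest library of each group was replicate 2, at nearly the same value. The 4 small loader subunits lay on the other side of 0, with log2 fold changes of -0.18 to -0.055.

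Genes that protect single strands and finish the lagging strand lay between -0.11 and 0.07, and 0 of 5 passed the unadjusted test. *Rpa1* (chr11:75298166-75348324), the large subunit of the single-strand binding complex, had the highest log2 fold change of the 5, at 8.95, 8.75 and 8.98 log2 CPM in control and 8.84, 9.04 and 9.01 in Nr3c1-Foxp3Cre libraries (log2 fold change 0.069, SE 0.10, unadjusted p = 0.524). Its groups overlapped. *Rpa2* and *Rpa3*, the flap endonuclease gene *Fen1* and the ligase gene *Lig1* lay between -0.11 and -0.014.

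Nucleotide supply held the most abundant transcript per kb. *Rrm2* (chr12:24708241-24714146), the small subunit of ribonucleotide reductase, which makes deoxynucleotides and is limiting in S phase, was at 9.30, 8.73 and 9.19 log2 CPM in control and 9.04, 9.11 and 9.12 in Nr3c1-Foxp3Cre libraries (log2 fold change 0.014, 95% interval -0.31 to 0.34). *Rrm1* (chr7:102441695-102469771), the large subunit, was at 9.10, 8.86 and 9.04 against 8.97, 8.96 and 8.97 (log2 fold change -0.031, 95% interval -0.25 to 0.19). In both genes the 3 Nr3c1-Foxp3Cre libraries lay within 0.1 log2 units of each other, inside the control range. *Tyms* (chr5:30058202-30073617), thymidylate synthase, was at 7.50, 7.40 and 7.57 against 7.23, 7.39 and 7.44 (log2 fold change -0.14, 95% interval -0.36 to 0.09). *Tk1* (chr11:117815526-117826092), the thymidine kinase of S phase, was at 7.24, 6.83 and 7.18 against 6.82, 6.96 and 7.04 (log2 fold change -0.15, 95% interval -0.43 to 0.14). Their groups overlapped through control replicate 2, and without that library the *Tk1* log2 fold change was -0.27, with an unadjusted p under 0.05 and a limma adjusted p = 0.822. Without control replicate 1 it was -0.073, the value nearest to 0 with 1 library left out. *Dut*, which removes dUTP, and *Ung*, which removes uracil from DNA, lay at -0.076 and -0.16, and *Ung* had the widest interval of all members (-0.89 to 0.57) and their lowest level.

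Chromatin and histone supply genes also overlapped between the groups. *Uhrf1* (chr17:56303321-56323486), which carries DNA methylation over to the new strand, was at 7.79, 7.63 and 7.82 log2 CPM in control and 7.87, 7.69 and 7.72 in Nr3c1-Foxp3Cre libraries (log2 fold change 0.010, 95% interval -0.21 to 0.23). The groups overlapped. *Chaf1a* and *Chaf1b*, the histone chaperone that follows PCNA, and *Slbp*, which binds histone mRNA, lay between -0.11 and 0.01.

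The E-type cyclins and E2F activators, which sit at the G1/S switch itself, gave 0 of 4 members at an unadjusted p under 0.05. *Ccne1* (chr7:38097984-38107534) was at 6.16, 5.65 and 6.11 log2 CPM in control and 5.76, 5.98 and 6.17 in Nr3c1-Foxp3Cre libraries (log2 fold change -0.0053, 95% interval -0.38 to 0.37). *Ccne2* (chr4:11191351-11204779) was at 5.71, 5.01 and 5.42 against 4.83, 5.59 and 5.30 (log2 fold change -0.14, 95% interval -0.65 to 0.38). Each gene spread over more than 0.4 log2 units within each group, more than the difference between the groups. *E2f1* (chr2:154559407-154569892) was at 5.68, 5.28 and 5.55 against 5.42, 5.56 and 5.39 (log2 fold change -0.044, 95% interval -0.36 to 0.27). *E2f2* (chr4:136172394-136196057) had the highest log2 fold change of the 47 members, with 4.60, 5.28 and 5.32 in control and 5.26, 4.96 and 5.29 in Nr3c1-Foxp3Cre libraries (log2 fold change 0.11, SE 0.21, unadjusted p = 0.620). That value rested on control replicate 1, the lowest library, and without it the log2 fold change was -0.13.

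Members differed far more in level than between the groups. Per kb of transcript, *Rrm2* at 247, *Slbp* at 205, *Pcna* at 194 and *Mcm6* at 190 CPM per kb (geometric means over all 6 libraries) were the most abundant, and the ranges of these 4 over the libraries overlapped. *Mcm3*, *Rrm1*, *Mcm2*, *Mcm5* and *Fen1* followed at 114 to 143. The lowest were *Pola1* at 7.92, *E2f2* at 7.34, *Orc1* at 6.77, *Pole* at 5.48 and *Ung* at 1.85. Over the union of exons *Rrm2* was again first and *Ung* last, while *Slbp* went from place 2 to place 11. For 13 members exons overlap those of another protein-coding gene, among them *Rfc4* with *Eif4a2* and *Tk1* with *Afmid*. The library kit does not mark strand, so reads of such neighbors cannot be told apart there.

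The members moved together from library to library within each group. Their mean over 47 genes was 6.83, 6.62 and 6.85 log2 CPM in control libraries and 6.61, 6.66 and 6.81 in Nr3c1-Foxp3Cre libraries. The spread within a group (6.77 ± 0.13 and 6.69 ± 0.10, SD, n = 3) was larger than the difference of -0.076 between the groups. Control replicate 2 was the lowest of its group for 41 members (87.2%), against 37.2% of all genes, and Nr3c1-Foxp3Cre replicate 3 the highest of its group for 33 (70.2%), against 36.5% of all genes. For 27 members both held. In 11 members, among them *Cdc6*, *Cdt1*, *Mcm2*, *Gins1*, *Ccne2* and *E2f1*, the highest Nr3c1-Foxp3Cre library was instead replicate 2.

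**Figure D4:**
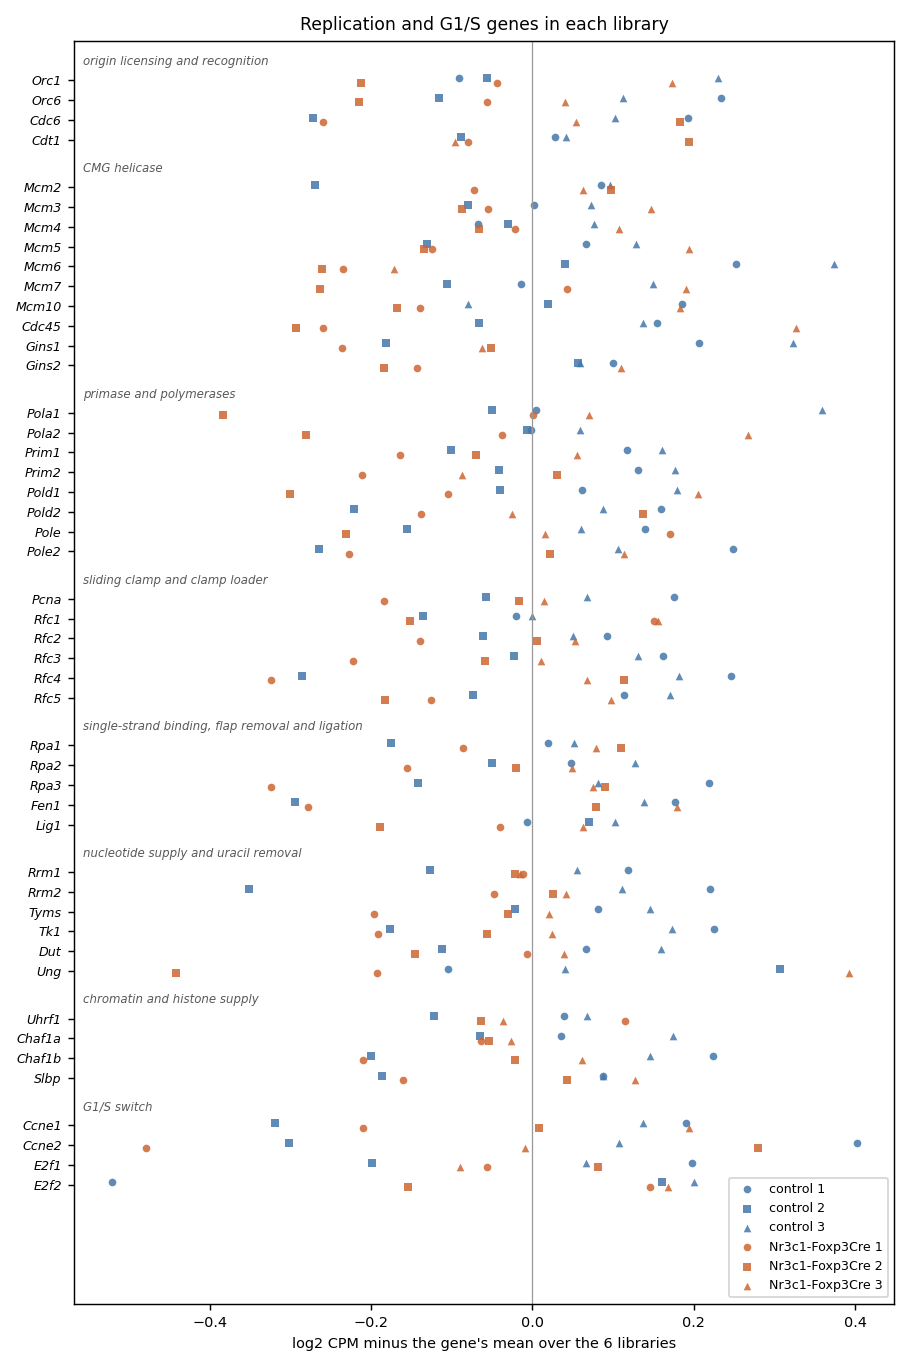
Log2 CPM of each member minus its mean over the 6 libraries (x axis), by gene and role (y axis), with a marker for each library. Control replicate 2 lies at the left of its group in 41 of 47 members, and only in *Mcm6* do the colors separate.

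Melanocyte markers also differed between these libraries, in another order. Their mean was 8.74, 7.33 and 8.39 log2 CPM in control and 8.19, 8.69 and 7.38 in Nr3c1-Foxp3Cre libraries, so control replicate 2, low in the members, was low in them too, while Nr3c1-Foxp3Cre replicate 3, high in the members, was the lowest of its group. With their mean as a covariate, the median log2 fold change of the members was -0.074 and 36 of 47 were below 0. The part of melanoma RNA in the member values of single libraries was not tested further.

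**Figure D5:**
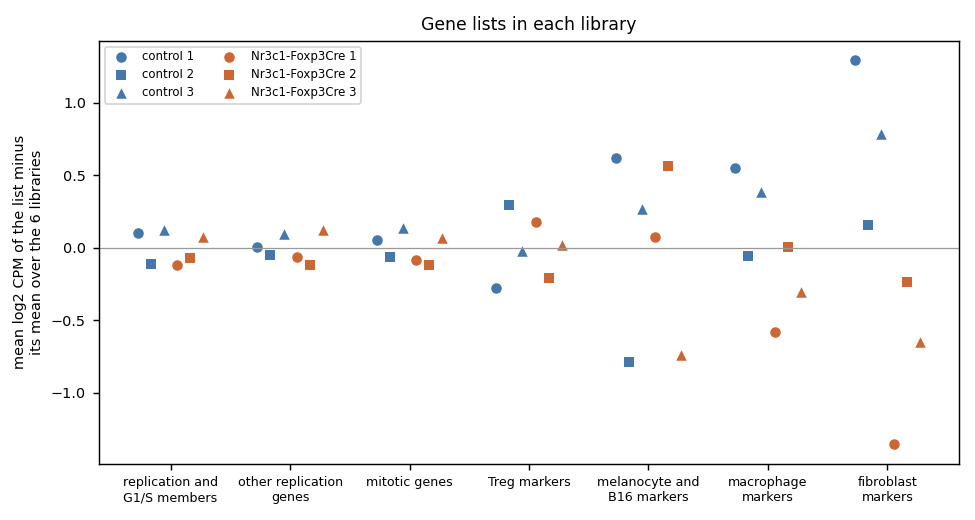
Mean log2 CPM of each gene list minus its mean over the 6 libraries (y axis), for 7 lists (x axis), with a marker for each library. The replication and mitotic lists spread by about 0.2 and overlap between the groups, the melanocyte markers spread by 1.4, and only the fibroblast markers separate the groups.

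The direction count moved with single libraries. Leaving out each library in turn, between 28 (without Nr3c1-Foxp3Cre replicate 1) and 44 (without control replicate 2) of the 47 members had a log2 fold change below 0, and the median over the members lay between -0.15 and -0.027. The count of members at an adjusted p under 0.05 was 0 in each of these fits. Without control replicate 3, the highest of its group for 24 members, the median was -0.027, and without control replicate 2 it was -0.15. All these counts rest on the same 6 libraries.

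Other replication genes and the genes of mitosis, the step that follows, gave like counts. Of 50 other replication genes, 0 had an unadjusted p under 0.05, 33 (66.0%) were below 0, and the median log2 fold change was -0.070. Of 25 mitotic genes, 0 had an unadjusted p under 0.05, 20 (80.0%) were below 0, and the median was -0.093. Control replicate 2 was the lowest of its group for 18 of these 25 and Nr3c1-Foxp3Cre replicate 3 the highest for 18, the same libraries as for the members.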

How the data were processed

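RNA-Seq libraries were made by the authors from sorted Tregs with a SMARTer ultra-low input kit and Nextera XT and sequenced on a NextSeq 2000. Per the study's methods, Cutadapt trimmed the reads, STAR placed them on mm10 and RSEM estimated counts on GENCODE M21, after which the authors filtered low genes and quantile normalized. The deposited values are log2 CPM after that normalization. Each library sums to 999633 or 999634 CPM, read totals are not given, and the weights of voom, which need counts, were not recomputed. Quantile normalization gives all libraries 1 distribution, so a change shared by most genes would not be seen.

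All 12153 genes were fitted with limma 3.58.1 (R 4.3.3; lmFit with a term for genotype alone, eBayes with trend, two-sided), with Benjamini-Hochberg adjustment over all genes at 0.05. The fit was tested on simulated data. Levels per kb used the transcript lengths of GENCODE M21, to which 12130 genes matched by identifier, the 47 members included. The union of exons as another length was chosen after seeing the data. Genes named with values for each library were *Mcm2* to *Mcm7*, *Pcna*, *Cdc6*, *Cdt1*, *Rrm1*, *Rrm2*, *Tyms*, *Tk1*, *Ccne1*, *Ccne2*, *E2f1*, *E2f2* and *Uhrf1*, members with an unadjusted p under 0.05 or no overlap, and the 3 highest and 3 lowest log2 fold changes. Genes of other lists that are named were chosen after their values were seen. The members and lists were chosen with earlier results of these data known. Alternatives were no trend, robust eBayes, sample quality weights, a minimum mean of 1 log2 CPM, log2(CPM + 1), centering on genes with a mean of at least 5 log2 CPM, melanocyte markers as a covariate, a replicate block, and leaving out each library.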

Additional observations from a re-analysis of the deposited data

How the results depend on the processing

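With 3 libraries against 3, log2 fold changes of members near 0 have no settled sign: with 1 library left out, the sign changed in 49 fits of single members and held in 233, and under the other settings it changed in 11 and held in 365. The number of libraries limits the precision, and the depth is unknown. The cause of each change below was not tested.

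The 0 members at an adjusted p under 0.05, in either direction, and the sign of the median log2 fold change of the members (-0.15 to -0.027) held in each alternative. At an adjusted p under 0.05, 1 of all genes lay higher and 6 lower. These counts were 0 and 0 without a mean-variance trend, 7 and 12 with sample quality weights and 4 and 14 with the melanocyte markers as a covariate, and lay between 0 and 3 and between 0 and 5 with 1 library left out. Sample quality weights gave control replicate 3 a weight of 7.47 and every other library at most 0.86. With these weights 45 of the 47 members had a log2 fold change below 0, against 37 in the main fit. At an unadjusted p under 0.05 they put 9 members lower instead of 1, and 0 higher. The 9 were *Chaf1a*, *Gins1*, *Mcm6*, *Pola1*, *Prim2*, *Rfc3*, *Rfc5*, *Tk1* and *Tyms*. Of all genes 11.3% passed with these weights, a share that counts lower and higher genes together. With 1 library left out, the count of members lower at an unadjusted p under 0.05 was 1 to 2. The second was *Tk1* without control replicate 2 and *Cdc45* without Nr3c1-Foxp3Cre replicate 3. Of all genes, 5.78% and 3.56% passed in these fits, lower and higher together. A count of 2 in 47 is near these shares.

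Whether the replicate numbers pair the libraries is not known. Deviations from the group means had a mean correlation of -0.157 (-0.329 to -0.0246) for the same number, against 0.0784 (-0.269 to 0.365) otherwise. Deviations within a group sum to 0, which ties these means to each other, so they cannot decide it. In the fit with a replicate block, 0 genes were higher and 0 lower at an adjusted p under 0.05, *Mcm6* had an unadjusted p = 0.00745 (limma), and no member changed its call.

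Sample quality weights turned the sign for *Cdt1* (-0.043), *Mcm2* (-0.048), *Mcm3* (-0.048), *Mcm4* (-0.046), *Mcm10* (0.027), *Rpa1* (-0.0068), *Rrm2* (-0.083), *Uhrf1* (-0.044), *Slbp* (-0.070) and *E2f2* (-0.081), and the melanocyte covariate turned it for *Ccne1* (0.0030). Log2 fold changes with 1 library left out spanned 0 for 26 members. Ranges were -0.16 to 0.046 for *Orc1*, -0.16 to 0.11 for *Cdc6*, -0.082 to 0.063 for *Cdt1*, -0.061 to 0.12 for *Mcm2*, -0.069 to 0.048 for *Mcm3*, -0.037 to 0.055 for *Mcm4*, -0.15 to 0.014 for *Mcm5*, -0.12 to 0.11 for *Mcm7* and -0.18 to 0.098 for *Pola2*. Further ranges were -0.13 to 0.058 for *Pold2*, -0.12 to 0.078 for *Pole*, -0.21 to 0.049 for *Pole2*, -0.098 to 0.0018 for *Rfc2*, -0.26 to 0.043 for *Rfc4*, -0.0013 to 0.13 for *Rpa1*, -0.20 to 0.029 for *Rpa3*, -0.16 to 0.12 for *Fen1* and -0.10 to 0.020 for *Rrm1*. The remaining ranges were -0.16 to 0.13 for *Rrm2*, -0.40 to 0.019 for *Ung*, -0.048 to 0.047 for *Uhrf1*, -0.085 to 0.089 for *Slbp*, -0.17 to 0.098 for *Ccne1*, -0.32 to 0.066 for *Ccne2*, -0.15 to 0.045 for *E2f1* and -0.13 to 0.23 for *E2f2*.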

Other observations

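Upstream of the members, 30 of 32 listed regulators of the G1/S step had a value, and 0 of them had an unadjusted p under 0.05 in limma. Their median log2 fold change was -0.020, with 18 below 0. *Tfdp2*, a partner with which E2F proteins bind DNA, was the only regulator of the 30 whose groups did not overlap, where 3.69% of all genes were higher without overlap, a share near that of the list. It was at 4.95, 5.01 and 5.11 log2 CPM in control and 5.16, 5.21 and 5.32 in Nr3c1-Foxp3Cre libraries (log2 fold change 0.21, SE 0.13, unadjusted p = 0.141). It was named after its values were seen, and it is on a list that the study chose from these samples. The D-type cyclins of T cells were level: *Ccnd2* was at 9.21, 9.05 and 9.01 against 9.25, 9.23 and 8.98 (log2 fold change 0.066, 95% interval -0.18 to 0.31), and *Ccnd3* at 7.91, 7.95 and 7.95 against 7.96, 7.78 and 8.10 (log2 fold change 0.010, 95% interval -0.22 to 0.24). These 2 genes were also chosen after their values were seen.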
